A study of Mus musculus with 7 samples.

Results

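The genes described here are 68 of the 15415 genes in a count table of hair follicle cells, taken by their symbols as DNA repair and damage checkpoint genes: all symbols of the Rad, Fanc, Brca, Xrcc, Ercc, Msh, Mlh and Lig series, with Atm, Atr, Chek1, Chek2, Mdc1, Trp53, Trp53bp1, Mdm2, Parp1 and Parp2. The cells were Lgr5-positive, the mark of hair follicle stem cells, and were sorted from mouse back epidermis by a green fluorescent protein signal as live, CD45-negative cells, CD45 being the surface marker of leukocytes. The 4 Anagen samples, from mice aged 35 days, represent the growing follicle, and the 3 Telogen samples, from mice aged 45 days, the resting follicle. All mice were C57Bl6 x B10D2, and the labels do not name the allele that gives the fluorescence. Anagen mice were the younger ones, so age and phase cannot be told apart. The labels are silent on the number of mice behind each sample; p-values therefore describe sample-to-sample spread, some of which may be technical.

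DNA damage is read by the kinases ATM, which answers to breaks of both strands, and ATR, which answers to exposed stretches of single-stranded DNA; they act through the checkpoint kinases CHK2 and CHK1 and through p53, whose level is held down by the ubiquitin ligase MDM2. Breaks are mended either by homologous recombination, which copies an intact sister strand and works mainly in S and G2 phase, or by end joining, which works throughout the cell cycle. Damaged bases, bulky lesions, mispairs and crosslinks between strands have their own pathways (base excision, nucleotide excision, mismatch repair and the Fanconi anaemia pathway). Bulge stem cells of the follicle are mostly at rest in Telogen, and the lower follicle is rebuilt by dividing cells in Anagen.

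Libraries held 13719893 to 17042690 counts in Anagen and 5097457 to 6453337 in Telogen, with no overlap, so an effect of depth or batch cannot be told apart from phase. Levels are given as CPM, counts scaled to the normalised library total. A count of 3, divided by the plain library total, is worth 0.176 to 0.219 CPM in Anagen and 0.465 to 0.589 CPM in Telogen. In these bulk libraries, fewer cells of a type and less RNA per cell cannot be told apart. The 7 keratinocyte markers summed to 25861 to 31226 CPM in Anagen and 16415 to 24542 CPM in Telogen. Leukocytes had 5.68 to 11.3 CPM in Anagen and 6.59 to 31.3 CPM in Telogen over 10 of 11 markers, of which Cd3e, Cd3g, Cd3d and Cd207 were at 0 in Anagen and Csf1r in Telogen. The 7 fibroblast markers summed to 1076 and 1518 CPM in Anagen 1 and Anagen 2 and to 82.4 and 103 CPM in Anagen 3 and Anagen 4, against 77.1 to 106 CPM in Telogen, where Dcn and Lum were at 0. Genes of interfollicular differentiation (4 of 5 in the table) had 17.7 to 28.2 CPM in Anagen and 618 to 1107 CPM in Telogen. The 10 markers of cycling cells summed to 245 to 347 CPM in Anagen and 1.96 to 14.9 CPM in Telogen. The 12 S phase genes, which make and license DNA, summed to 231 to 398 CPM in Anagen and 335 to 553 CPM in Telogen. Gene by gene they went both ways, with 7 of the 12 higher in Anagen and 5 lower. Their median log2 fold change (Anagen minus Telogen) was 0.31. At an adjusted p under 0.05 by edgeR, 1 of the S phase genes rose and 3 fell. The part of these differences in the results below was not tested.

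The 2 called members with the largest fold change in each direction among those held in the RefSeq promoter table (GRCm38.p6, 250 bases before to 50 after the start of the gene) are shown by their promoters, 5′ to 3′ on the strand of the gene. Capitals would mark the letters searched, E2F-like sites (TTTCCCGC, TTTGGCGC, TTTCGCGC and TTTGCCGC) and CHR sites (TTTGAA and TTCGAA), on both strands, and none of these 4 windows held them. The upper pair rose in Anagen and the lower pair fell.
Rad51ap1, chr6:126939538-126939837, minus strand: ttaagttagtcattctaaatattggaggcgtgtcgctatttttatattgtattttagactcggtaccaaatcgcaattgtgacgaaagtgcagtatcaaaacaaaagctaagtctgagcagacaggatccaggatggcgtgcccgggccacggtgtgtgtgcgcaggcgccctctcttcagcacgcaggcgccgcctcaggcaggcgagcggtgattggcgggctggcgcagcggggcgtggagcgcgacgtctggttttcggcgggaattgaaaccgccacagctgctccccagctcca
Brca1, chr11:101551906-101552205, minus strand: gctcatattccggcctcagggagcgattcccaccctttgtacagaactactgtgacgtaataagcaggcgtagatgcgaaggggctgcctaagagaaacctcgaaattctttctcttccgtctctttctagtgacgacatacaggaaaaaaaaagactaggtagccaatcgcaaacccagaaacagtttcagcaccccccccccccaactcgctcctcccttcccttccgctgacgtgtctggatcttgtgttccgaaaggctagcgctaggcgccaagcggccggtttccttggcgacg
Parp2, chr14:50807666-50807965, plus strand: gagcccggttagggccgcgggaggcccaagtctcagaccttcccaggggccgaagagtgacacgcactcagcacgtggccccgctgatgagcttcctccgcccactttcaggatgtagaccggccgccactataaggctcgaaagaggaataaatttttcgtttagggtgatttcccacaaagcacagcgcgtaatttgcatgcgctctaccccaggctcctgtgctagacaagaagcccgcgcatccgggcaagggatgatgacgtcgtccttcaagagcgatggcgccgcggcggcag
Xrcc5, chr1:72307171-72307470, plus strand: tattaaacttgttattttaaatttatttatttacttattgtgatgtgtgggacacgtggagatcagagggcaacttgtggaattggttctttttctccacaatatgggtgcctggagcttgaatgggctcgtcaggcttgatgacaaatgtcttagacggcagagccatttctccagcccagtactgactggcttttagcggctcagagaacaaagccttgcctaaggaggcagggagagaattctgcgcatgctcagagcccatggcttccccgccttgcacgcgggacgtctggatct

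E2F factors switch on genes of S phase, and the CHR element serves genes of late cell cycle phases. An E2F-like match was in 9 of 53 member promoters (17%), against 3.86% of 11605 promoters of listed genes; it was in 1 of 5 promoters of members that rose, 2 of 10 of members that fell and 5 of 35 of members not past the threshold. A CHR match was in 3 of 53 member promoters (5.66%) and in 13.8% of all 11605. These matches are letters in a window and not sites of binding. The 28 bases around the E2F-like match of each of the 9 promoters follow on the strand of the match, with the match in capitals; they are shown because they share these letters across members that rose (Mdc1), that fell (Msh6 and Xrcc6), that did not pass the test (Brca2, Chek2, Fancg, Msh3 and Msh5) and that was too low to test (Rad51c). In Msh3, which had 2 matches that overlap, the match further from the start is capitalised.
Mdc1, chr17:35841472-35841499, plus strand: cttcagcctgTTTCCCGCcggtagccgc
Msh6, chr17:87975055-87975082, plus strand: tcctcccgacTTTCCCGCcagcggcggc
Xrcc6, chr15:82016313-82016340, minus strand: cccactcgcaTTTCCCGCttccaccccc
Brca2, chr5:150522443-150522470, minus strand: tgtgtgtctgTTTCCCGCtgtggcctaa
Chek2, chr5:110839821-110839848, minus strand: gacgtcttggTTTCCCGCggctaatccc
Fancg, chr4:43010336-43010363, minus strand: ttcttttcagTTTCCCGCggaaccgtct
Msh3, chr13:92355188-92355215, minus strand: tgccgtcaagTTTGGCGCgaaatcgcag
Msh5, chr17:35046670-35046697, plus strand: ttcgcagcacTTTCCCGCcttttccgtc
Rad51c, chr11:87404942-87404969, plus strand: accccttgctTTTCCCGCcctcgcgggg

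Levels among the members spanned a wide range. Scaled by gene length, the highest was Rad23b, which hands damaged DNA to nucleotide excision repair, at a mean of 75.5 RPKM in Anagen and 75.3 RPKM in Telogen (reads scaled by gene length and library total). Trp53, which encodes p53, had a mean of 62.0 RPKM in Anagen and 21.1 RPKM in Telogen, and the cohesin gene Rad21 had 59.0 RPKM in Anagen and 64.6 RPKM in Telogen. The median member had a mean of 3.65 RPKM in Anagen and 3.76 RPKM in Telogen, and 13 members in Anagen and 20 in Telogen had a mean under 1 RPKM. The SD was 25.9% of the mean for the median tested member in Anagen and 41.1% in Telogen, against 24.3% and 33.4% for the median of all genes tested in Anagen and in Telogen.

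**Figure D1:**
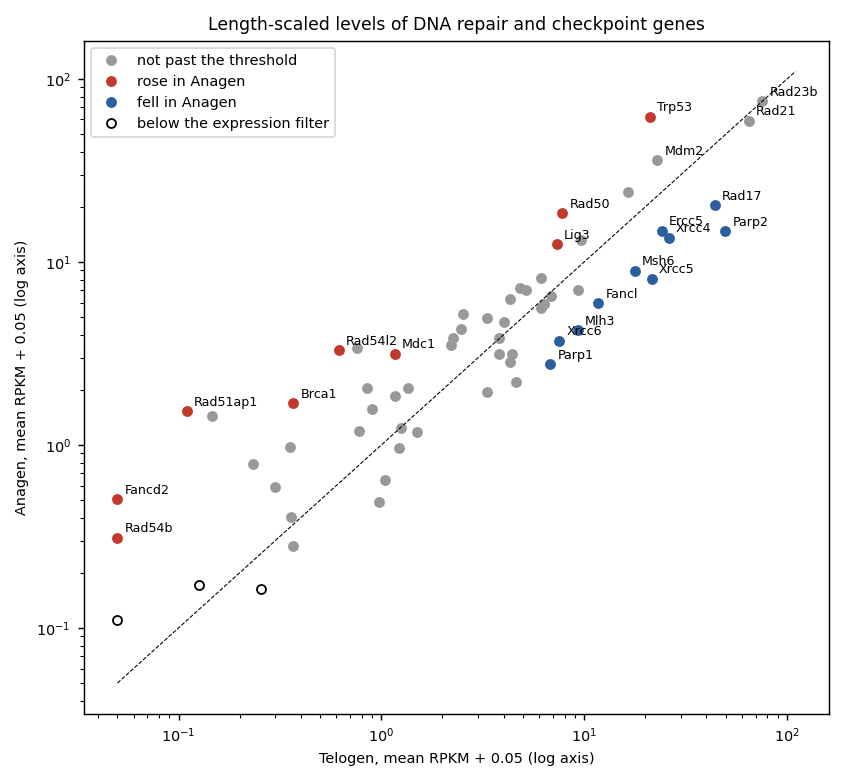
Mean RPKM of the genes in Anagen (vertical) and Telogen (horizontal), both with 0.05 added and on log axes; each point is a gene and the dashed line marks equal levels. Trp53 stands above the line among the most abundant members, Rad23b and Rad21 lie near it, and Parp2, Rad17 and Xrcc5 lie below it.

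Of the 65 members that passed the expression filter, 10 were higher in Anagen, 10 were lower and 45 missed the threshold (edgeR's quasi-likelihood test, adjusted p under 0.05 over all genes). Rad51ap2, Rad51c and Msh4 were too low to test, with 24, 23 and 12 counts over the Anagen libraries and 10, 4 and 0 over the Telogen libraries. The share past the threshold was 30.8%, against 49.5% of all 12266 genes tested (25.8% rose and 23.7% fell). Levels did not overlap between the groups in 25 of the 65, against 54.5% of all genes tested. The median log2 fold change (Anagen minus Telogen) was 0.35 for the tested members and 0.09 for all genes. Members that rose included Trp53, Mdc1, Rad50, Brca1, Rad51ap1, Rad54b, Fancd2, Lig3 and Rad54l2, and members that fell were Rad17, Fancl, Xrcc4, Xrcc5, Xrcc6, Parp1, Parp2, Ercc5, Mlh3 and Msh6. Without Anagen 1 and Anagen 2, whose fibroblast markers were high, 5 members rose and 7 fell. Calls over all genes also dropped there, from 3170 to 2118 that rose and from 2902 to 2206 that fell. Correcting for GC content and transcript length (offsets) left 9 members that rose and 7 that fell (all genes: 2916 and 2587). The median of the members was then -0.05, against 0.11 for all genes. The transcripts of the members that rose had a median length of 5001 bases, and those of the members that fell 2760.5 bases; over all genes tested these were 3583 and 2482 bases.

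**Figure D2:**
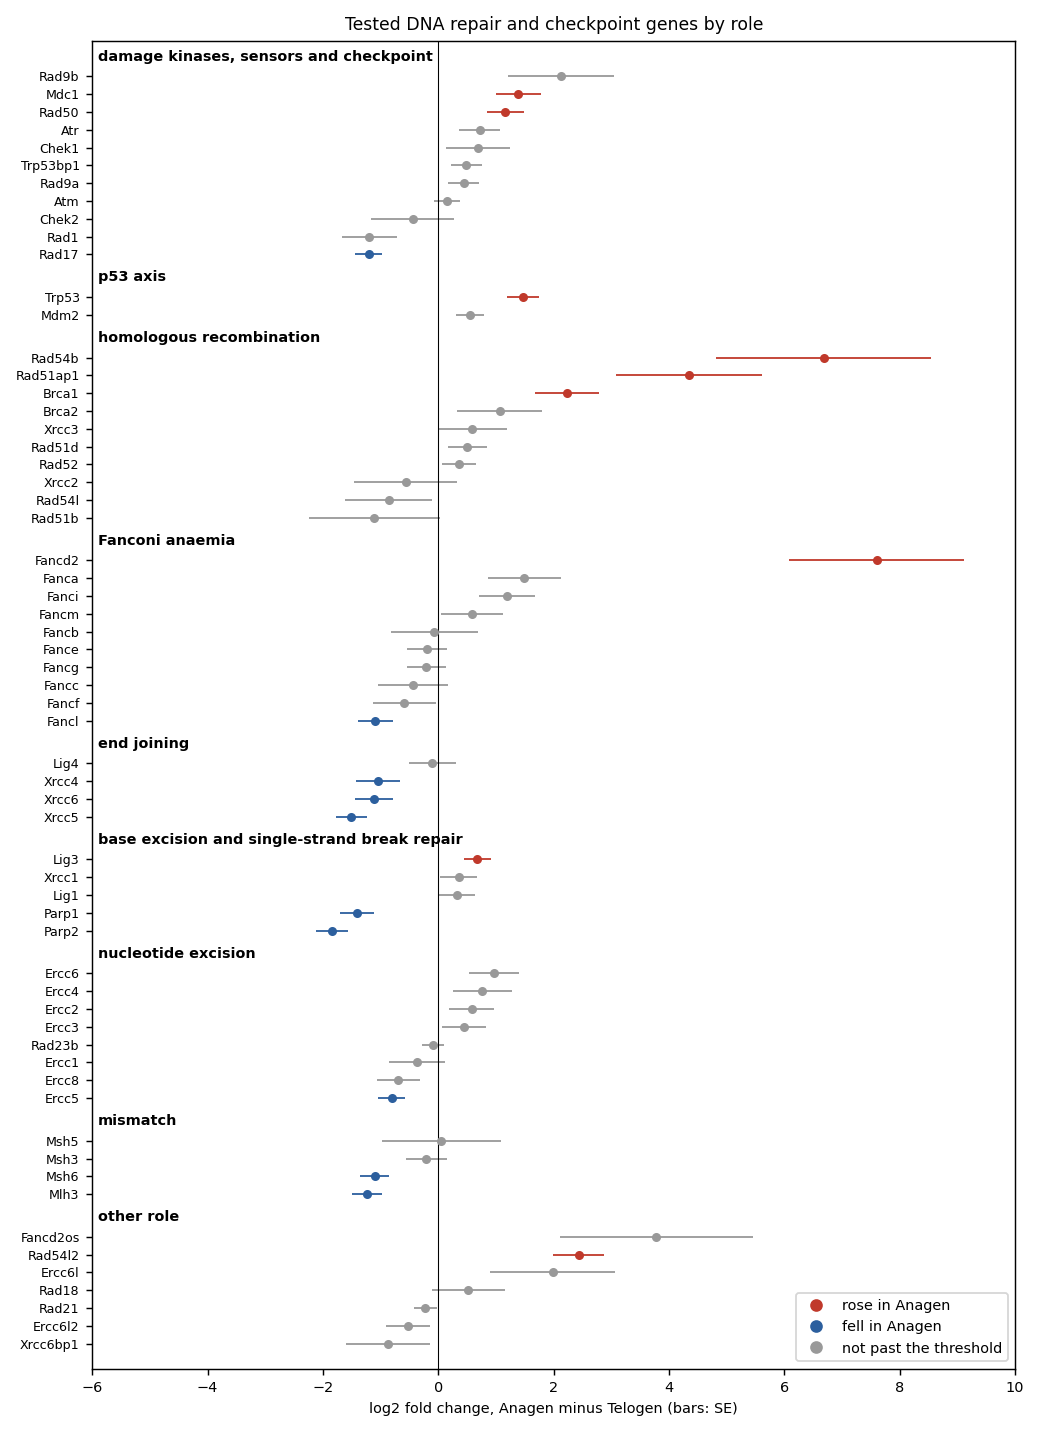
Log2 fold change (Anagen minus Telogen) of tested genes by role, for those named in the text; points are estimates, bars are SE and colours give the result of the test. End joining lies at or below 0, homologous recombination has its called genes above 0, and the values of Fancd2 and Rad54b are fits against 0 counts in Telogen and not sizes of change.

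Of p53 and its keeper MDM2, the gene of p53 alone passed the test. Trp53 had 100.2, 94.2, 100.4 and 159 CPM in Anagen 1 to 4, against 43.1, 28.9 and 51.5 CPM in Telogen 1 to 3 (NM_001127233, mm10 chromosome 11, 69580359 to 69591873). Every Anagen library was above every Telogen library, with Anagen 4 the highest, and Trp53 rose 2.76-fold (log2 fold change 1.46 ± 0.28, SE; adjusted p = 0.00152). GENCODE lists a processed pseudogene, Trp53-ps, on chromosome 17, so reads of Trp53 may be shared with it. Mdm2 had 97.8, 84.0, 100.2 and 152 CPM in Anagen, against 71.6, 67.3 and 83.0 CPM in Telogen (NM_010786, chromosome 10). The groups did not overlap, yet by edgeR's quasi-likelihood test Mdm2 did not pass the threshold (0.55 ± 0.24, SE; adjusted p = 0.0772).

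Genes that p53 is known to switch on were read from a list of 36, of which 34 were in the table and all 34 were tested. Of these, 14 were called higher in Anagen, 7 lower and 13 neither, a share of 61.8% against 49.5% of all genes; the median log2 fold change was 0.53. Pmaip1, which encodes the death-promoting protein NOXA, had 87.7, 64.9, 72.1 and 65.9 CPM in Anagen and 5.16, 6.39 and 12.9 CPM in Telogen, and rose 8.96-fold (adjusted p = 4.49e-05). Perp, a gene of desmosomes in skin, rose 2.26-fold (adjusted p = 0.000183), Mdm4, a relative of Mdm2 that restrains p53, 3.37-fold (adjusted p = 0.000206) and Trp53i11 5.18-fold (adjusted p = 0.000387). Fas, a death receptor, fell 36.9-fold (adjusted p = 0.000582); the fall was 78.9-fold without Anagen 2 and 21.5-fold with the offsets. Trp73, which encodes the p53 relative p73, fell 8.54-fold (adjusted p = 0.00283; 15.2-fold without Anagen 1 and Anagen 2 and 14.5-fold with the offsets), Polk, a polymerase that copies past lesions, 4.17-fold (adjusted p = 0.00342) and Rrm2b, which makes nucleotides for repair, 2.52-fold (adjusted p = 0.00356). The list held members of other pathways too, and Ercc5, itself among the 68, fell.

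**Figure D3:**
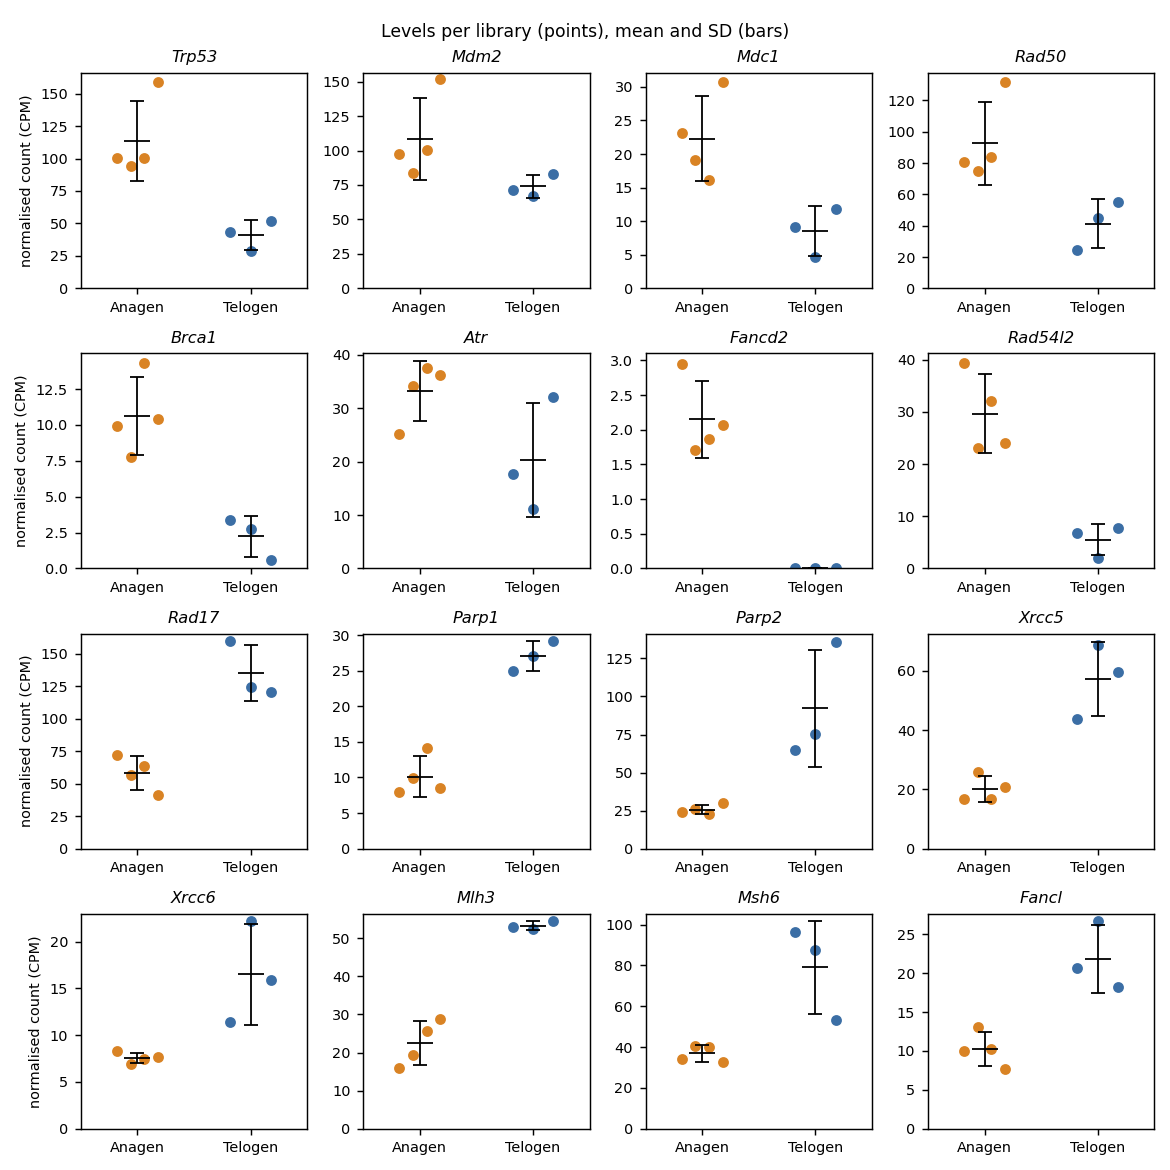
Normalised counts (CPM, vertical, from 0) of 16 members in each library, Anagen left of Telogen; points are libraries and bars are mean and SD. Trp53, Mdc1, Rad50, Brca1 and Rad54l2 are higher in all 4 Anagen libraries, Fancd2 has 0 CPM in all 3 Telogen libraries, Atr overlaps between the groups, and Rad17, Parp1, Parp2, Xrcc5, Xrcc6, Mlh3, Msh6 and Fancl are lower in all 4 Anagen libraries.

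Among 11 genes of damage kinases, sensors and the checkpoint, 2 rose (Mdc1 and Rad50), 1 fell (Rad17) and 8 did not pass the test. That put 27.3% past the threshold, against 49.5% of all genes tested. The apical kinases were present in both phases. Atm had 51.2, 54.4, 50.3 and 62.3 CPM in Anagen, against 42.0, 48.8 and 57.1 CPM in Telogen, so the groups overlapped (log2 fold change 0.15 ± 0.22, SE; adjusted p = 0.606 by edgeR). Atr had 25.2, 34.1, 37.5 and 36.2 CPM in Anagen, against 17.6, 11.2 and 32.1 CPM in Telogen (0.72 ± 0.36, SE; adjusted p = 0.119 by edgeR). Telogen 3 was the Telogen library that lay within the Anagen range of Atr, and without it the change was 1.22 (adjusted p = 0.0133). Chek1, the kinase below ATR, had 9.15, 13.9, 7.99 and 19 CPM in Anagen, against 10.1, 1.92 and 11.3 CPM in Telogen (0.69 ± 0.56, SE; adjusted p = 0.325 by edgeR). Chek2, the kinase below ATM, had 2.38, 1.27, 2.45 and 3.86 CPM in Anagen and 1.25, 6.87 and 1.98 CPM in Telogen, and its sign turned without Telogen 2 (-0.45 with all libraries, 0.63 without). All 4 kinases overlapped between the groups, while 54.5% of all genes tested did not.

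Mdc1 and 53BP1 gather repair factors on the chromatin around a break. Mdc1 had 23.1, 19.1, 16.2 and 30.7 CPM in Anagen, against 9.08, 4.64 and 11.9 CPM in Telogen, and rose 2.62-fold (1.39 ± 0.39, SE; adjusted p = 0.0130). Its call ended with offsets for GC content and length (0.74; adjusted p = 0.0986) and without Anagen 1 and Anagen 2 (1.46; adjusted p = 0.0557). Trp53bp1, the gene of 53BP1, had 58.1, 58.8, 82.2 and 70.9 CPM in Anagen and 65, 35.2 and 44.4 CPM in Telogen. It did not pass the test (0.49 ± 0.26, SE; adjusted p = 0.150 by edgeR); it passed without Telogen 1 (0.77; adjusted p = 0.0368) and had the opposite sign with the offsets (-0.21).

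Rad50, the long coiled-coil part of the complex that binds broken ends, had 80.4, 74.9, 83.6 and 132 CPM in Anagen, against 24.2, 44.9 and 55.1 CPM in Telogen (NM_009012, chromosome 11, 53649519 to 53707319). The groups did not overlap and Rad50 rose 2.24-fold (1.16 ± 0.32, SE; adjusted p = 0.0113). Its partners from the list of other repair genes, Mre11a and Nbn, had log2 fold changes of -0.83 and -0.60 (adjusted p = 0.0716 and 0.112). Rad17, which loads the clamp that lets ATR act, had 72.3, 56.5, 63.6 and 41.3 CPM in Anagen, against 159.5, 124 and 121 CPM in Telogen, and fell 2.31-fold (-1.21 ± 0.23, SE; adjusted p = 0.00156). With the offsets the change of Rad17 was -0.59 (adjusted p = 0.0587). The clamp itself is made by Rad9a, Rad1 and Hus1: Rad1 had 8.86, 13, 9.92 and 2.72 CPM in Anagen and 18.3, 27.0 and 13.9 CPM in Telogen (-1.20; adjusted p = 0.0559), and Rad9a had a log2 fold change of 0.44 (adjusted p = 0.207). Rad1 passed the test without Anagen 2 (-1.47; adjusted p = 0.0402), without Telogen 3 (-1.39; adjusted p = 0.0495), with RLE factors (adjusted p = 0.0448) and by DESeq2 (adjusted p = 0.0295). Rad9b, a relative of Rad9a, had 6.41, 2.76, 7.60 and 4.07 CPM in Anagen and 0, 2.72 and 0.793 CPM in Telogen (2.12, adjusted p = 0.0765 by edgeR). It passed without Telogen 2 (3.74, adjusted p = 0.0164), with the offsets (2.84, adjusted p = 0.0280) and by DESeq2 (2.08, adjusted p = 0.0407). Its Telogen counts were 0, 17 and 4, so the value without Telogen 2 rests on 0 and 4 counts. Of its exon bases, 23.2% overlap Pptc7 on the other strand.

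In homologous recombination, 3 of 11 tested genes rose (Brca1, Rad51ap1 and Rad54b), and 0 fell by edgeR (0 also by DESeq2). The other 8 did not pass the test. The share that rose was 27.3%, near the 25.8% of all genes tested. Brca1, which steers breaks into recombination, had 9.94, 7.77, 14.3 and 10.4 CPM in Anagen, against 3.38, 2.72 and 0.594 CPM in Telogen (NM_009764, chromosome 11, 101488764 to 101551955). No Anagen library came down to a Telogen level, and Brca1 rose 4.69-fold (2.23 ± 0.55, SE; adjusted p = 0.00640). Brca2, which loads the recombinase onto DNA, had 9.73, 3.31, 3.16 and 7.43 CPM in Anagen and 1.25, 0.959 and 6.34 CPM in Telogen (1.06 ± 0.74, SE; adjusted p = 0.256 by edgeR). Its high Telogen library was Telogen 3, and without it the change was 2.42 (adjusted p = 0.0231).

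Low counts carry the other calls of this pathway. Rad51ap1 and Rad54b passed the expression filter through Anagen alone, so their calls could hardly have gone the other way. Rad51ap1, a recombination factor, had 30, 105, 20 and 17 counts in Anagen, against 2, 0 and 0 in Telogen, a ratio of 23.6 (exact 95% interval 6.45 to 197, counting error only; adjusted p = 0.0152). That ratio was 13.1 (3.48 to 110.1) without Anagen 2, 14.9 (4.06 to 124) without Telogen 2, and at least 10.5-fold higher without Telogen 1, the only Telogen library with reads; it was too low to be tested without Anagen 1 and Anagen 2. Rad54b, a motor protein of recombination, had 4, 24, 24 and 19 counts in Anagen and 0 in every Telogen library, at least 6.51-fold higher against 3 counts over the Telogen group (adjusted p = 0.0160). The bound was 4.35 without Telogen 1 and 4.10 without Telogen 2; Rad54b was too low to be tested without Anagen 2, 3 or 4, and 35.8% of its exon bases overlap Fsbp on the same strand, which had a log2 fold change of -0.14. Rad54l, the better known relative of Rad54b, had 2.16, 2.59, 1.29 and 1.07 CPM in Anagen and 4.45, 4.64 and 0.594 CPM in Telogen (-0.86; adjusted p = 0.367). The other tested members, Rad51b, Rad51d, Rad52, Xrcc2 and Xrcc3, had log2 fold changes between -1.11 and 0.59, and Rad51b, at 4.76 CPM in Telogen 3 and at most 0.320 CPM in the other Telogen libraries, went to 1.63 without Telogen 3. Rad52 passed with the offsets (0.83; adjusted p = 0.0402).

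Of 10 Fanconi anaemia genes tested, 1 rose (Fancd2), 1 fell (Fancl) and 8 did not pass the test. That put 20% past the threshold, against 49.5% of all genes tested. Fancd2, which the core complex marks with ubiquitin at a crosslink, had 41, 31, 29 and 29 counts in Anagen and 0 in each Telogen library, at least 11.9-fold higher against 3 counts over the Telogen group (NM_001033244, chromosome 6, 113531682 to 113596285; adjusted p = 0.00308). Without Telogen 2 the bound was 7.51, and without Telogen 1 it was 7.96. Fancd2 too passed the expression filter through Anagen alone, so its call could hardly have gone the other way. Fancl, the ubiquitin ligase of the core, had 10, 13.1, 10.2 and 7.65 CPM in Anagen, against 20.7, 26.7 and 18.2 CPM in Telogen. It fell 2.13-fold (-1.09 ± 0.31, SE; adjusted p = 0.0129), and with the offsets the change was -0.29 (adjusted p = 0.429); 13.7% of its exon bases overlap Vrk2 on the other strand, which fell. Fanci, the partner of FANCD2, had 6.20, 11.9, 6.12 and 11.8 CPM in Anagen, against 4.63, 5.11 and 1.98 CPM in Telogen, and Fanca, of the core, had 6.12, 3.03, 2.70 and 4.65 CPM in Anagen, against 0.890, 2.08 and 1.39 CPM in Telogen. The groups of both did not overlap, though the log2 fold changes of 1.19 and 1.49 missed the threshold (adjusted p = 0.0609 and 0.0690). Both share exon bases with a gene on the other strand that rose, 16% of Fanci with Polg and 10.5% of Fanca with Zfp276. Fancb, Fancc, Fance, Fancf, Fancg and Fancm had log2 fold changes between -0.59 and 0.59.

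Of 4 end joining genes, 3 fell (Xrcc4, Xrcc5 and Xrcc6), against 23.7% of all genes tested, 1 (Lig4) did not pass the test and 0 rose by edgeR (0 also by DESeq2); leaving out Telogen 2, or Anagen 1 with Anagen 2, left 1, Xrcc5. Xrcc5 and Xrcc6 encode Ku80 and Ku70, the ring that grips a broken end. Xrcc5 had 16.9, 26.0, 16.8 and 20.7 CPM in Anagen, against 43.8, 68.6 and 59.6 CPM in Telogen (NM_009533, chromosome 1, 72307421 to 72394953). The groups lay well apart, and Xrcc5 fell 2.85-fold (-1.51 ± 0.27, SE; adjusted p = 0.000959). Xrcc6 had 8.28, 6.95, 7.47 and 7.65 CPM in Anagen, against 11.4, 22.2 and 15.9 CPM in Telogen, and fell 2.17-fold (-1.12 ± 0.33, SE; adjusted p = 0.0162). Its call ended without Telogen 2, the highest Telogen library (-0.84; adjusted p = 0.0744). Xrcc4, which holds the end-joining ligase, had 21.8, 20.9, 28.3 and 10.7 CPM in Anagen and 40.2, 61.2 and 25.4 CPM in Telogen (-1.05 ± 0.38, SE; adjusted p = 0.0388). Here the groups overlapped, through Anagen 3 and Telogen 3, and the call of Xrcc4 ended when any library but Anagen 3 or Telogen 3 was left out (adjusted p = 0.0680 to 0.182) and with the offsets (-0.10; adjusted p = 0.819). Lig4, the ligase, had 12.2, 18, 12.2 and 17.6 CPM in Anagen and 16.4, 24.9 and 6.93 CPM in Telogen (-0.10; adjusted p = 0.851).

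Of the 5 genes of base excision and the repair of nicks, 1 rose (Lig3), 2 fell (Parp1 and Parp2) and 2 did not pass the test. That put 60% past the threshold, against 49.5% of all genes tested. Parp2 and Parp1 encode the enzymes that mark nicks with poly(ADP-ribose) chains. Parp2 had 23.8, 25.7, 23.1 and 29.9 CPM in Anagen, against 65, 75.6 and 136 CPM in Telogen (NM_009632, chromosome 14, 50807946 to 50821300), and fell 3.59-fold (-1.85 ± 0.28, SE; adjusted p = 0.000368). Parp1 had 7.92, 9.92, 14.2 and 8.51 CPM in Anagen, against 24.9, 27.0 and 29.1 CPM in Telogen (NM_007415, chromosome 1, 180568975 to 180601254), and fell 2.66-fold (-1.41 ± 0.30, SE; adjusted p = 0.00273). In neither gene did a library of one phase reach the other phase. Lig3, the ligase that works with XRCC1, had 63.1, 62.8, 73.6 and 89.5 CPM in Anagen, against 41.1, 44.0 and 50.3 CPM in Telogen, and rose 1.60-fold (0.68 ± 0.23, SE; adjusted p = 0.0281). The call of Lig3 ended without Anagen 3, Anagen 4, Telogen 1 or Telogen 2 (adjusted p = 0.0543 to 0.0746) and with the offsets (0.19; adjusted p = 0.441), and 25.1% of its exon bases overlap Rffl on the other strand. Xrcc1, the scaffold, and Lig1, which seals nicks in replication, had log2 fold changes of 0.35 and 0.32 (adjusted p = 0.381 and 0.424).

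Of 9 nucleotide excision genes, 1 rose, 1 fell (Ercc5) and 7 did not pass the test. That left 22.2% past the threshold, against 49.5% of all genes tested. Ercc5, the nuclease XPG that cuts beside the lesion, had 60.2, 43.5, 67.5 and 59.7 CPM in Anagen, against 112, 76.1 and 115 CPM in Telogen. It fell 1.75-fold (-0.81 ± 0.24, SE; adjusted p = 0.0152), and without Anagen 1 and Anagen 2 the adjusted p was 0.130. Ercc6, which starts repair in transcribed genes, had 25.9, 41.7, 48.2 and 52.3 CPM in Anagen and 15.8, 10.2 and 38.8 CPM in Telogen (0.96; adjusted p = 0.0899), with Telogen 3 again the high Telogen library; without it the change was 1.70 (adjusted p = 0.00505). Ercc1, Ercc2, Ercc3, Ercc4, Ercc8 and Rad23b had log2 fold changes between -0.69 and 0.76, and Ercc2, a helicase of the repair and transcription factor TFIIH, passed without Telogen 2 (1.14; adjusted p = 0.0275) and had the opposite sign with the offsets (-0.06).

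In mismatch repair, 2 of 6 tested genes fell (Mlh3 and Msh6), and 0 rose by edgeR (0 also by DESeq2). The other 4 did not pass the test. The share that fell was 33.3%, against 23.7% of all genes tested. Mlh3, a MutL protein, had 16.1, 19.4, 25.7 and 28.9 CPM in Anagen, against 52.9, 52.3 and 54.5 CPM in Telogen (NM_175337, chromosome 12, 85234466 to 85270599). The Telogen libraries differed little and all lay above Anagen, and Mlh3 fell 2.36-fold (-1.24 ± 0.26, SE; adjusted p = 0.00279). Msh6 had 34.4, 40.5, 40.1 and 32.6 CPM in Anagen, against 96.5, 87.4 and 53.3 CPM in Telogen, and fell 2.15-fold (-1.10 ± 0.25, SE; adjusted p = 0.00425). Msh3 and the meiotic Msh5 had log2 fold changes of -0.21 and 0.05.

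A few genes carry a repair symbol and have another main role, or a role apart from the pathways above. Rad54l2, which encodes a chromatin remodeller that binds the androgen receptor, had 39.3, 23.1, 32.0 and 24.1 CPM in Anagen, against 6.77, 2.08 and 7.73 CPM in Telogen (NM_030730, chromosome 9, 106688080 to 106789213). It rose 5.39-fold (2.43 ± 0.45, SE; adjusted p = 0.00120), and 3.25-fold with the offsets. Ercc6l, a helicase of mitotic chromosomes, had 1.73, 1.93, 4.19 and 4.22 CPM in Anagen and 0, 0.160 and 2.18 CPM in Telogen (1.98, adjusted p = 0.152 by edgeR). Its Telogen counts were 0, 1 and 11. The value of 5.02 without Telogen 3 (adjusted p = 0.00970 by edgeR) is thus a fit against 1 Telogen count and not a size of change. Rad18, a ubiquitin ligase for the bypass of lesions, had 13.4, 13.1, 14 and 11.1 CPM in Anagen and 4.63, 1.76 and 20.8 CPM in Telogen, and without Telogen 3 its change was 2.03 (adjusted p = 0.00683), against 0.52 with all libraries. Rad21, Ercc6l2 and Xrcc6bp1 had log2 fold changes of -0.23, -0.53 and -0.87. Fancd2os, which lies opposite the end of Fancd2 and shares 18.9% of its exon bases with it, had 29, 68, 0 and 20 counts in Anagen and 0, 0 and 2 in Telogen (ratio 16.1, exact 95% interval 4.35 to 134.4; adjusted p = 0.0829). The ratio was 9.55 without Anagen 2, 10.1 without Telogen 2 and 10.7 without Telogen 1, and Fancd2os was at least 7.52-fold higher without Telogen 3, the only Telogen library with reads; it passed the test without Anagen 3 (adjusted p = 0.0199).

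Telogen 3 was the highest Telogen library in 28 of the 65 tested members (43.1%), against 33.4% of all genes tested. Without it 15 members rose and 11 fell. Over all genes, 3208 rose and 2802 fell there, against 3170 and 2902 with all libraries. The 5 members that passed the test only without Telogen 3 were Atr, Brca2, Ercc6, Ercc6l and Rad18, of which Ercc6l had 1 Telogen count left. Without Anagen 4, 7 members rose and 9 fell (all genes: 2615 and 2661).

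**Figure D4:**
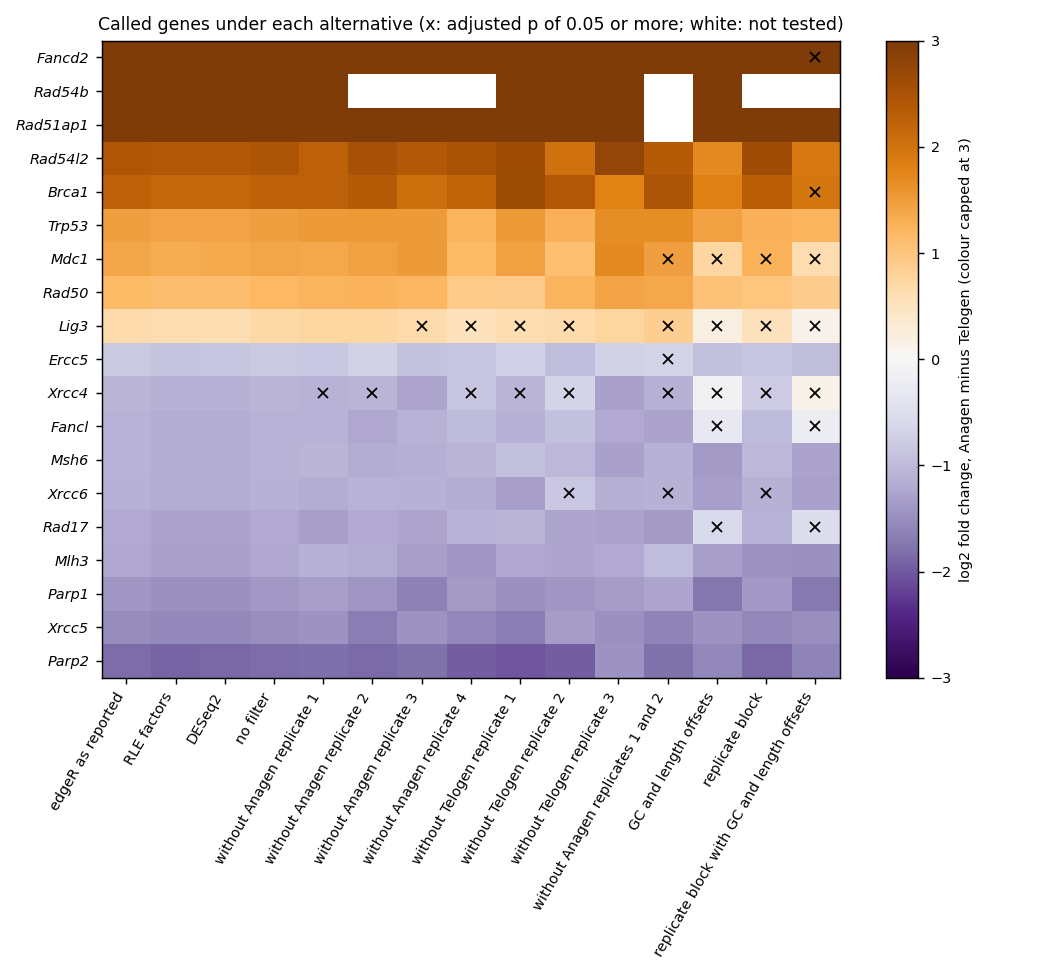
Log2 fold change (Anagen minus Telogen, colour, capped at 3) of the called members named in the text, by row, under each alternative, by column; a cross marks an adjusted p of 0.05 or more and a white cell a gene too low to test. Trp53, Rad50, Rad54l2, Parp1, Parp2, Xrcc5, Mlh3 and Msh6 carry no cross and no white cell; the columns with a replicate block add the number in the sample name to the fit.

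Other DNA repair genes, which the symbols above do not take, were read from a list of 104. The list also held regulators of the cell cycle, such as Cdc25a, Cdc25b, Cdc25c and Wee1. In all, 103 of its genes were in the table and 100 were tested. Of these, 12 were called higher in Anagen, 18 lower and 70 neither, a share of 30.0% against 49.5% of all genes; 7 rose without Anagen 2 and 6 without Anagen 1 and Anagen 2. Cdc25c, a phosphatase that opens mitosis, had 312 counts in Anagen and 0 in Telogen, at least 28.6-fold higher (adjusted p = 0.000549; at least 18-fold without Telogen 2 and at least 19.1-fold without Telogen 1). Neil3, a DNA glycosylase, had 429 counts in Anagen and 2 in Telogen, a ratio of 59.0 (exact 95% interval 16.2 to 489; adjusted p = 0.000708); it was 37.2 (10.2 to 308) without Telogen 2, and Neil3 was at least 27.6-fold higher without Telogen 3, the only Telogen library with reads. H2afx, the histone that ATM marks at a break, had 20.9, 24.2, 17.6 and 9.44 CPM in Anagen, against 3.74, 3.04 and 0.793 CPM in Telogen, and rose 7.06-fold (adjusted p = 0.00147). Faap100, of the Fanconi core, rose 5.55-fold (adjusted p = 0.00197; 3.68-fold with the offsets).

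Those that fell most firmly were Usp1, Etaa1, Uimc1 and Rev3l. Usp1, which takes ubiquitin off FANCD2, had 62.7, 71.4, 53.9 and 57.5 CPM in Anagen, against 168, 227 and 183 CPM in Telogen, and fell 3.14-fold (adjusted p = 7.01e-05). Etaa1, an activator of ATR, fell 4.53-fold (adjusted p = 7.97e-05), Uimc1, which brings BRCA1 to ubiquitin at a break, 3.93-fold (adjusted p = 0.000125) and Rev3l, the catalytic part of a polymerase that copies past lesions, 2.54-fold (adjusted p = 0.000226). 

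**Figure D5:**
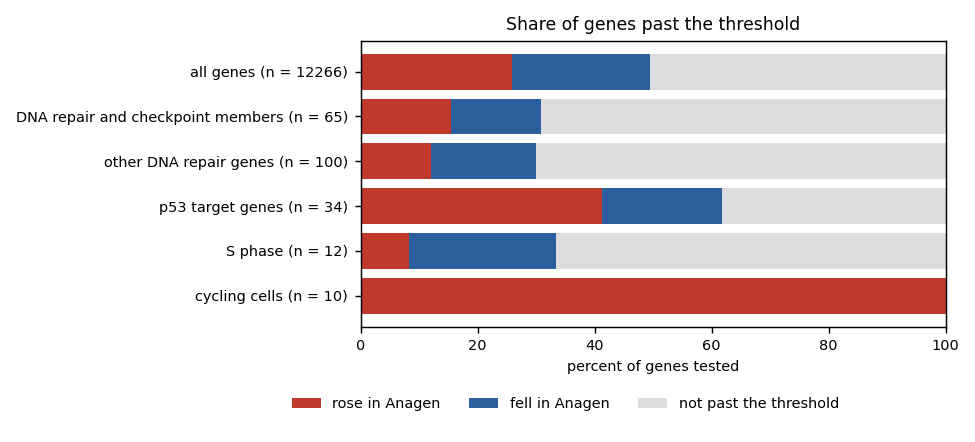
Percent of tested genes that rose, fell or did not pass the test (horizontal) in each list (vertical), with the number tested. The members and the other repair genes have 30.8% and 30.0% past the threshold against 49.5% of all genes, and all 10 markers of cycling cells rose.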

How the data were processed

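The deposited table gave raw read counts per gene over exons and RPKM values for 7 libraries, per the file headers; libraries were made with the Ovation RNA-Seq System V2, per the labels' protocols. Per the submitters' processing notes, reads were placed on mm10. Aligner, counter, strand setting and treatment of reads with several matches were not given in the sources used here. RPKM values deposited by the authors equalled count over length and total in 107905 of 107905 cases (relative tolerance 1e-09). Tests therefore used the deposited counts, and RPKM served only to compare levels between genes. Starts in the table are 0-based (start plus 1 equals the RefSeq start for 4823 of 5812 plus-strand genes) and are printed 1-based.

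Genes kept by filterByExpr at its defaults (minimum count 10, 15 in total) entered edgeR's quasi-likelihood test (version 4.0.16, under R 4.3.3, with TMM factors, robust fit, 2 groups, no covariate). The filter reads the minimum count as its CPM in a library of median size, so a smaller library reaches it with fewer counts. Benjamini-Hochberg adjustment ran over 12266 genes, with a threshold of 0.05. The procedure was tested on simulated data. Fold changes are Anagen over Telogen, with SE as the log2 fold change over the root of F. CPM are scaled to the TMM-normalised total. Against 0 counts a fold is a bound on 3 counts over the group, and intervals cover counting error only. Fancd2, Rad54b, Rad51ap1, Fancd2os, Cdc25c and Neil3, with 0 to 2 Telogen counts, passed the filter through Anagen alone. Alternatives were RLE factors, DESeq2 1.42.0, no filter, a fold change of 2 or more, leaving out libraries, offsets for GC content and length (GC from GENCODE M21 transcripts for 96.6% of genes) and replicate number as a block. Both fits with a block left out Anagen 4, whose number no Telogen library has. Exon overlaps came from GENCODE M21 and count from 10% of a member's exon bases. Such an overlap was found for 13 members. Among those not given above were Ercc2 (24.6% with Gm26852 and 17.8% with Klc3) and Fancc (16.4% with Gm16133). Rad54l (15.4% with Lrrc41, which rose), Trp53bp1 (15.0% with Tubgcp4) and Fancf (15.0% with Gas2) were also among them. All of these lie on the other strand.

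Members, roles and lists were chosen with earlier results of these data known, so no list is independent evidence. Per-library values are given for called members whose groups do not overlap and whose fold is 2 or more, and for most of a fixed set of core genes; other genes are named with their change, or because a library decided their call, and were chosen after their values were seen, as were the promoter windows with a match. In other lists the 4 genes with the smallest adjusted p in each direction are named. Same-numbered libraries of the 2 groups had correlations of their deviations of 0.00, 0.08 and -0.05, so the numbers were not taken as pairs. Some members enter the fits and the counts but are not reported here by name.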

Additional observations from a re-analysis of the deposited data

Results flagged for a closer look

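Among the 4 Anagen libraries, the genes below had a library that stood apart from the other 3 by more than Dixon's 95% critical value (gap to the nearest library over the range). Chance alone flags about 1 in 20 groups, and 64 genes were examined. Over all genes tested, Anagen 4 was the highest Anagen library in 30.3% and the lowest in 31.8%. In Anagen 4, Trp53 had 159 CPM, Rad50 132 CPM and Fancb 5.15 CPM. In Anagen 2, Xrcc6bp1 had 3.20 CPM and Rad51ap2 1.21 CPM. Trp53 and Rad50 stayed past the threshold without Anagen 4. Groups of 3 are too small for this test, so Telogen libraries were not examined by it.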

How the results depend on the processing

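Fitting the replicate number as a block, which the labels do not present as a pairing, also meant leaving out Anagen 4. It left 6 members that rose and 8 that fell (all genes: 2386 and 2381). It ended, among others, the calls of Mdc1 (adjusted p = 0.0570), Lig3, Xrcc4 and Xrcc6, and Rad54b was too low to test. Leaving out Anagen 4 alone also ended the calls of Lig3 and Xrcc4 and left Rad54b too low to test. Block and offsets together left 4 and 7 (all genes: 2150 and 2049). There Brca1 (adjusted p = 0.0814) and Fancd2 (adjusted p = 0.0522) also missed the threshold. So did Faap100 (3.54-fold, adjusted p = 0.0593), while Trp53i11 rose 3.16-fold and Fas fell 17.99-fold. Leaving out Anagen 1 and Anagen 2 left 5 and 7 (all genes: 2118 and 2206). Leaving out 1 library gave 7 to 15 members that rose and 8 to 11 that fell, and 7 to 13 other repair genes that rose; without Anagen 1 and Anagen 2 these were 6. Of the 10 members that rose and the 10 that fell, 5 and 5 kept their call wherever they were tested. The sign turned in 34 values of 19 genes, 0 of them past the threshold; the cause was not tested. With offsets these were Rad51d -0.13, Trp53bp1 -0.21, Ercc2 -0.061, Xrcc1 -0.13, Atm -0.15, Lig1 -0.052, Msh5 -0.44, Lig4 0.18 and Fancb 0.35. With block and offsets they were Rad51d -0.066, Trp53bp1 -0.17, Xrcc4 0.13, Xrcc1 -0.21, Atm -0.18, Lig1 -0.015, Xrcc6bp1 0.11, Rad21 0.054, Lig4 0.24 and Fancb 0.68. Msh5 was -0.014 with RLE factors and -0.0077 by DESeq2, with the block Fancb was 0.27, and without Anagen 1 and Anagen 2 Fancg was 0.15 and Fancb 0.17. Over single left-out libraries the values ran from -0.85 to 0.13 for Ercc6l2, -1.64 to 1.63 for Rad51b, -0.83 to 0.63 for Chek2, -0.44 to 0.18 for Fance, -0.43 to 0.35 for Msh3, -0.50 to 0.86 for Msh5, -0.19 to 0.021 for Rad23b, -0.45 to 0.37 for Lig4 and -0.50 to 1.54 for Fancb. Telogen depth limits low genes: Fancd2 and Rad54b had 0 counts there, and their folds are bounds.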
